A study of Mus musculus with 8 samples.

Results

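The genes described here build fatty acids and cholesterol, together with the proteins that switch them on. They were taken from a named list of 37 genes, and all 37 were measured, among 19938 genes in all. A gene entered through the probe sets annotated with its symbol and no other, and the brightest probe set stood for it. The list has a fatty acid arm of 14 genes, mostly targets of the transcription factor SREBP1, a sterol arm of 18 genes, mostly targets of SREBP2, and 5 regulators.

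RNA came from the renal cortex of male C57Bl6J mice 10 weeks old. The mice carried a disrupted SPAK (Stk39) gene, labelled SPAK KO, or were wild-type littermates, labelled WT, with 4 arrays per genotype. SPAK is a kinase that activates sodium chloride transporters of the distal nephron, and the comparison sought genes that jointly limit renal salt loss in its absence. Both groups had free access to water and to feed with 0.32% NaCl and 1% KCl. Neither the way the gene was disrupted nor the cells affected is given in the labels, which name no pooling of animals. Values are log2 expression values made by RMA, a method that corrects background, normalizes arrays and summarises probes, so a difference of 1 is a doubling. Where values are listed for a genotype, they follow the array numbers 1 to 4.

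Fatty acid synthesis starts from cytosolic acetyl-CoA, which acetyl-CoA carboxylase turns into malonyl-CoA and fatty acid synthase assembles into palmitate. Elongases and desaturases then lengthen it and add double bonds. Sterol synthesis condenses acetyl-CoA units into mevalonate, isoprenoids and squalene, which is closed into lanosterol and trimmed to cholesterol. SREBP1 and SREBP2 are made as membrane proteins that SCAP escorts to the Golgi for cleavage, and INSIG proteins hold SCAP back when sterols are plentiful. In the kidney the proximal tubule relies mainly on burning fatty acids.

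Stk39, the disrupted gene, read from 8.11 to 8.60 in WT and from 6.79 to 7.21 in SPAK KO, so the groups did not overlap. Of 11 proximal tubule markers, Slc34a1 and Miox read between 13.42 and 13.83 on every array, but others varied. Slc22a7 ran from 9.01 to 10.05 over WT arrays. Aqp1 was higher in SPAK KO without overlap (11.46 to 11.52, against 11.04 to 11.28 in WT). Slc5a2 was lower without overlap (11.01 to 11.07, against 11.11 to 11.41). The arrays of a group were unequally alike. Among 6297 genes with a mean above 8, the 6 pairs of SPAK KO arrays had 1 to 10 genes with a log2 gap above 0.4, WT 2 and WT 3 had 3, and the 5 other WT pairs had 119 to 228. WT 2 and WT 3 are therefore counted as 1 sample in WT means and SD (n = 3), and SPAK KO levels are given per array with no SD. The p-values of the fit over 8 arrays measure the spread between arrays, which within SPAK KO was as small as between WT 2 and WT 3. Over all genes that fit called 278 higher and 136 lower in SPAK KO. With arrays centred on their medians the counts were 673 and 89, or 88.3% of calls higher in place of 67.1%.

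Most of the pathway gave no difference that passed in SPAK KO cortex. Scd1, the desaturase that makes oleate and palmitoleate, rose 2.43-fold and was the 1 member of 37 called higher. Idi1, the isomerase that prepares isoprenoid units for sterol synthesis, read lower and was the 1 member called lower. That call came from the brighter of its 2 probe sets and was lost in 12 of 18 other settings. The other 35 members did not pass (limma, Benjamini-Hochberg adjusted p under 0.05 over all 19938 genes). Over all genes, 1.39% were called higher and 0.682% lower, so a count of 1 member in each direction is near that background. The groups did not overlap for 6 members that were higher and 2 that were lower in SPAK KO, against 6.9% and 5.71% of all genes.

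Scd1 (probe set 10467979) read 9.23, 9.70, 9.69 and 9.70 in WT, while in SPAK KO it read 10.85, 10.83, 10.85 and 10.89. WT 1 was the lowest array, the other WT arrays lay together, and every SPAK KO array stood at least 1.13 above the highest WT array. The WT mean was 9.54 ± 0.27 (SD, n = 3). The difference, SPAK KO minus WT, was 1.28 ± 0.10 (SE, 8 arrays; limma adjusted p = 5.6e-04), and it passed with each of the 8 arrays left out in turn, where it ran from 1.16 without WT 1 to 1.32. With agreeing arrays counted once the difference was 1.32, with an unadjusted p of 4.3e-04 and an adjusted p of 0.946. That limma fit rests on 3 WT samples against a lone SPAK KO sample whose spread is taken from WT. It called 0 genes, with 618 at an unadjusted p under 0.05.

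The close relatives of Scd1 gave no difference that passed. Scd2, which performs the same reaction and is the main form in brain, read 10.02, 10.60, 10.64 and 10.87 in WT and 10.56, 10.55, 10.55 and 10.63 in SPAK KO. All SPAK KO arrays fell inside the WT range, and the difference was 0.04 ± 0.14 (SE; limma adjusted p = 0.901). Scd3 and Scd4, further desaturases of this family, gave 0.0049 ± 0.08 and 0.09 ± 0.09 and did not pass. Both were dim, with Scd3 at 4.71 to 5.07 and Scd4 at 3.95 to 4.22 in WT. No background level comes with the values, so whether these genes were expressed is not known. The log2 ratio of Scd1 to Scd2 within an array ran from -1.17 to -0.79 in WT and from 0.27 to 0.31 in SPAK KO, a shift of 1.24. That to Fasn, the gene of fatty acid synthase, lay between 0.51 and 0.94 and between 1.89 and 1.98, a shift of 1.17. An exact two-sided permutation test over the 8 arrays gave p = 0.0286 for each ratio, the smallest p that 4 against 4 allows, and 0.0286 after adjustment over the 2 ratios, which were chosen with the values known. The 4 SPAK KO arrays are counted as separate samples in that test. The gap of Scd1 between groups exceeded the whole spread of Scd2 or of Fasn over the arrays. This p was therefore fixed by the Scd1 values and adds nothing to them.

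**Figure D1:**
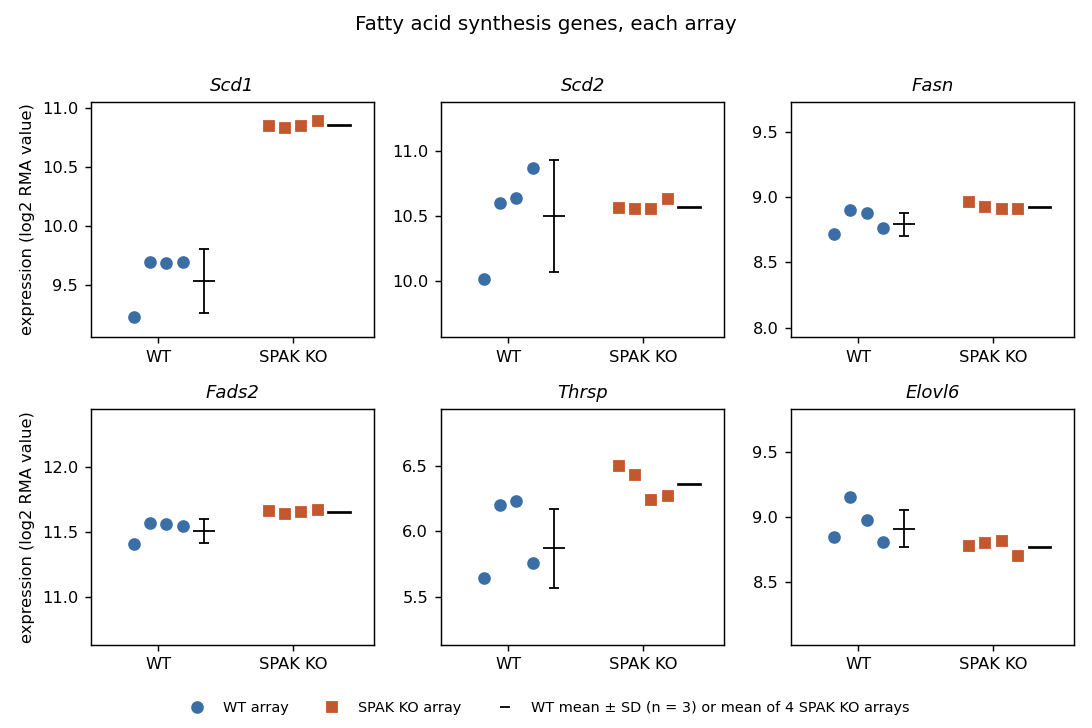
Log2 RMA values of 6 fatty acid synthesis genes on each array, with WT arrays as circles and SPAK KO arrays as squares, in order of array number from left to right. Black marks give the WT mean ± SD (n = 3, WT 2 and WT 3 counted once) and the mean of the 4 SPAK KO arrays. Scd1 lies between 10.83 and 10.89 in SPAK KO, far above WT, while the SPAK KO arrays of Scd2 fall inside the WT range.

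The enzymes that supply carbon and reducing power differed little. Acly, which makes cytosolic acetyl-CoA from citrate, gave 0.09 ± 0.05, and Acss2, which makes it from acetate, gave -0.03 ± 0.07. Me1, the cytosolic malic enzyme that yields NADPH, read 11.72 to 11.74 in WT and 11.64 to 11.66 in SPAK KO. Its groups did not overlap, but the difference of -0.08 ± 0.04 did not pass (adjusted p = 0.335). These 3 genes lie at the entry of the pathway, and none of them passed.

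Chain building followed the same course. Acaca and Acacb are the acetyl-CoA carboxylases. Acaca read 7.09, 7.36, 7.49 and 7.57 in WT, while SPAK KO arrays read 7.59, 7.47, 7.44 and 7.57, and the groups overlapped. The Acaca difference was 0.14 ± 0.09 (adjusted p = 0.455), and it was 0.04 without WT 1. Acacb gave 0.08 ± 0.06. Fasn read 8.72, 8.90, 8.88 and 8.76 in WT and 8.96, 8.92, 8.91 and 8.91 in SPAK KO, so every SPAK KO array was above every WT array, by 0.01 at the closest. The difference for Fasn was 0.11 ± 0.05 (limma adjusted p = 0.305), a 1.08-fold change that did not pass. Thrsp, or Spot 14, a small protein that accompanies lipogenesis, had the largest difference of the arm after Scd1. It read 5.64, 6.20, 6.23 and 5.76 in WT and 6.50, 6.43, 6.24 and 6.27 in SPAK KO, with 2 WT arrays close to the lower SPAK KO arrays. Its difference was 0.40 ± 0.13 (adjusted p = 0.145). Thrsp is dimmer than the others and no background level comes with these values.

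Among elongases, Elovl6, which extends palmitate to stearate, read 8.85, 9.15, 8.98 and 8.81 in WT and 8.78, 8.80, 8.82 and 8.70 in SPAK KO. The groups overlapped and the difference was -0.17 ± 0.07 (adjusted p = 0.237), opposite in sign to that of Scd1, and -0.11 without WT 2. Elovl1 and Elovl5, which act on very long and on polyunsaturated chains, gave -0.05 ± 0.05 and 0.05 ± 0.05. Fads2 and Fads1, the desaturases of polyunsaturated fatty acids, gave 0.13 ± 0.05 and -0.02 ± 0.06. Fads2 read 11.41 to 11.57 in WT and 11.64 to 11.67 in SPAK KO without overlap, and it did not pass (adjusted p = 0.211).

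In all, 9 of the 14 genes of the fatty acid arm had a difference above 0, with a median of 0.07, or 0.05 over the 13 genes without Scd1. The median of the 14 was 0.12 with arrays centred on their medians, 0.03 with cyclic loess or quantile normalization and 0.04 without WT 1. Over all genes 45.8% were above 0 and the median was -0.01. At an unadjusted p under 0.05 there were 3 higher and 1 lower in the arm, and 1794 higher and 2012 lower among all genes. The arm's mean log2 level ran from 9.48 to 9.70 over WT arrays and from 9.75 to 9.79 over SPAK KO arrays. Without Scd1 these ranges were 9.50 to 9.70 and 9.66 to 9.71, so the groups then overlapped. Without a test of the list, these values describe the arm and do not set it apart.

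The sterol arm held differences of both signs. Of its 18 genes, 8 were above 0 and 10 below, from -0.39 for Idi1 to 0.28 for Tm7sf2, with a median of -0.04, which was 0.02 with arrays centred on their medians and -0.0063 without WT 3. The sterol arm's mean log2 level ran from 8.89 to 9.06 over WT arrays, and the SPAK KO arrays, from 8.93 to 8.98, fell inside that range. At an unadjusted p under 0.05 there were 4 higher and 3 lower, or 38.9% of the arm, against 19.1% of all genes. The median size of a difference was 0.12, against 0.08 over all genes and 0.09 in the fatty acid arm. The list was not tested.

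**Figure D2:**
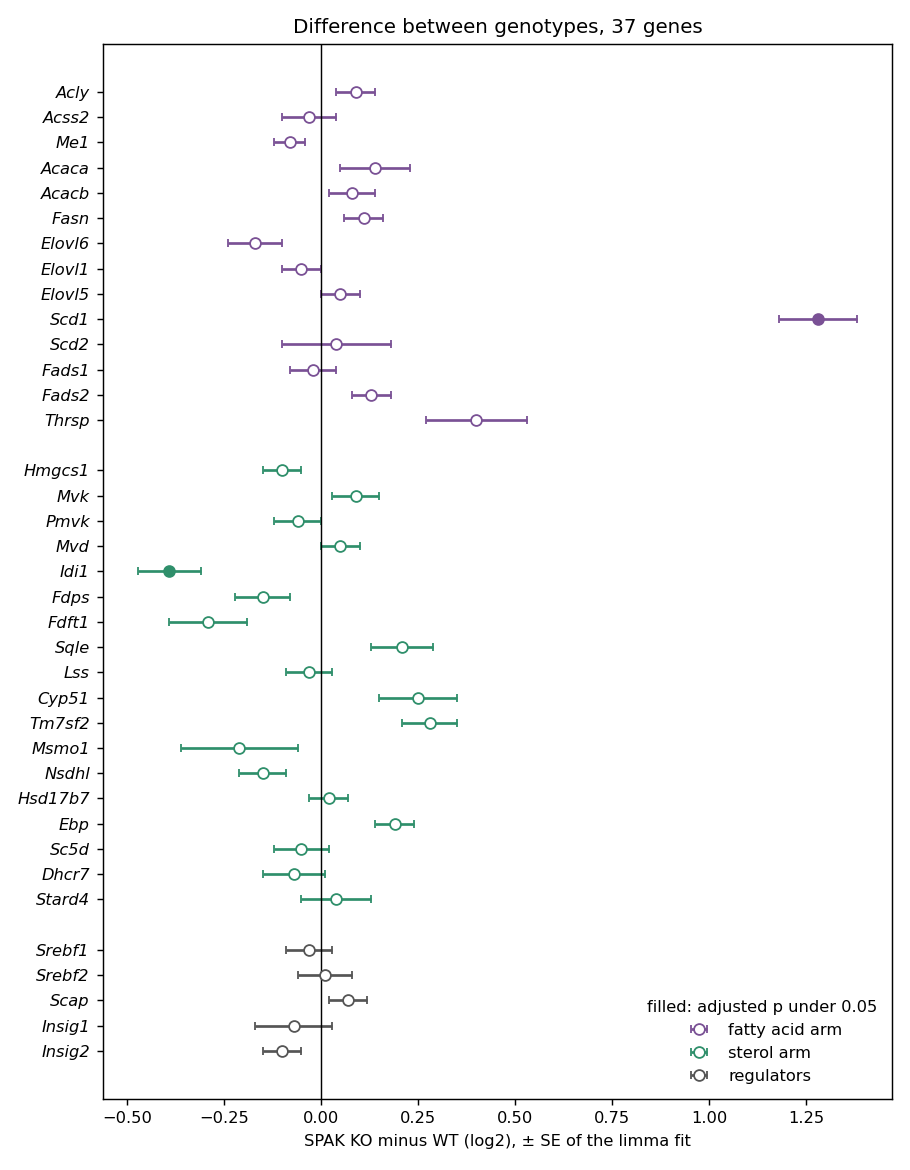
Difference between SPAK KO and WT for all 37 genes in log2 units, with the SE of the limma fit over 8 arrays, in the order of the pathway within the fatty acid arm, the sterol arm and the regulators. Filled points passed at an adjusted p under 0.05. Scd1 (1.28) and Idi1 (-0.39) are filled, and sterol genes lie on both sides of 0.

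The steps to squalene, upstream of the sterol ring, included the most negative differences of the arm. Idi1 (probe set 10482762) read 9.85, 10.10, 10.23 and 9.99 in WT, while in SPAK KO it read 9.61, 9.64, 9.66 and 9.70. All SPAK KO arrays were below all WT arrays, by 0.15 at the closest, and the WT mean was 10.0 ± 0.16 (SD, n = 3). The difference was -0.39 ± 0.08 (SE; limma adjusted p = 0.032), or 1.31-fold lower. A dimmer probe set of the same gene, 10403413, gave -0.34 with an adjusted p of 0.0825. The annotation gives both probe sets the same symbol, so signal from near-identical copies cannot be told apart. Whether the brighter probe set, which gave the call, lies in Idi1 itself or in a copy elsewhere was not settled. The call of Idi1 rested on the array set: with each array left out in turn it passed in 2 of 8 fits, without WT 1 or WT 4, and the adjusted p otherwise lay between 0.0606 and 0.11. Averaging WT 2 and WT 3 gave -0.35 (adjusted p = 0.0674), and counting agreeing arrays once gave -0.35 (unadjusted p = 0.0476, adjusted p = 1).

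No other gene of the steps to squalene passed. Fdft1, squalene synthase, read 9.55, 9.91, 10.03 and 9.69 in WT and 9.45, 9.48, 9.52 and 9.56 in SPAK KO. WT 1 lay within the SPAK KO range, and the difference was -0.29 ± 0.10 (adjusted p = 0.143), with -0.23 for a dimmer probe set. Fdps, which makes farnesyl diphosphate, gave -0.15 ± 0.07. Hmgcs1, which makes HMG-CoA at the start of the sterol branch, gave -0.10 ± 0.05. The mevalonate kinases and decarboxylase between these steps, Mvk, Pmvk and Mvd, gave 0.09 ± 0.06, -0.06 ± 0.06 and 0.05 ± 0.05.

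From squalene to cholesterol the signs were mixed, and no gene passed over 8 arrays. Sqle, squalene epoxidase, gave 0.21 ± 0.08 and Lss, which closes the ring to lanosterol, gave -0.03 ± 0.06. Cyp51, the lanosterol demethylase, read 9.28, 8.80, 8.87 and 9.03 in WT and 9.26, 9.28, 9.14 and 9.28 in SPAK KO, so WT 1 was as high as SPAK KO. Its difference of 0.25 ± 0.10 did not pass over 8 arrays (adjusted p = 0.204) and passed without WT 1 (0.34, adjusted p = 0.0417). Tm7sf2, a sterol reductase that acts on the next intermediate, read 7.31, 7.55, 7.67 and 7.57 in WT and 7.81, 7.78, 7.78 and 7.85 in SPAK KO without overlap. The Tm7sf2 difference was 0.28 ± 0.07 (adjusted p = 0.0855).

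Ebp, the isomerase of the late pathway, read 9.92, 9.86, 9.97 and 9.91 in WT and 10.15, 10.12, 10.10 and 10.05 in SPAK KO. Its groups did not overlap and the difference was 0.19 ± 0.05 (adjusted p = 0.0808). Both Tm7sf2 and Ebp passed with arrays centred on their medians, with dim genes left out, or with trend and robust options in eBayes. Msmo1 and Nsdhl, which remove methyl groups from the ring, gave -0.21 ± 0.15 and -0.15 ± 0.06. Msmo1 varied most between WT arrays in the sterol arm, from 8.28 on WT 1 to 9.09 on WT 3. Among the fits that left out 1 array it passed, as lower, in the fit without WT 1. Hsd17b7, Sc5d and Dhcr7, further enzymes between lanosterol and cholesterol, gave 0.02 ± 0.05, -0.05 ± 0.07 and -0.07 ± 0.08. Stard4, a carrier of cholesterol between membranes, gave 0.04 ± 0.09.

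**Figure D3:**
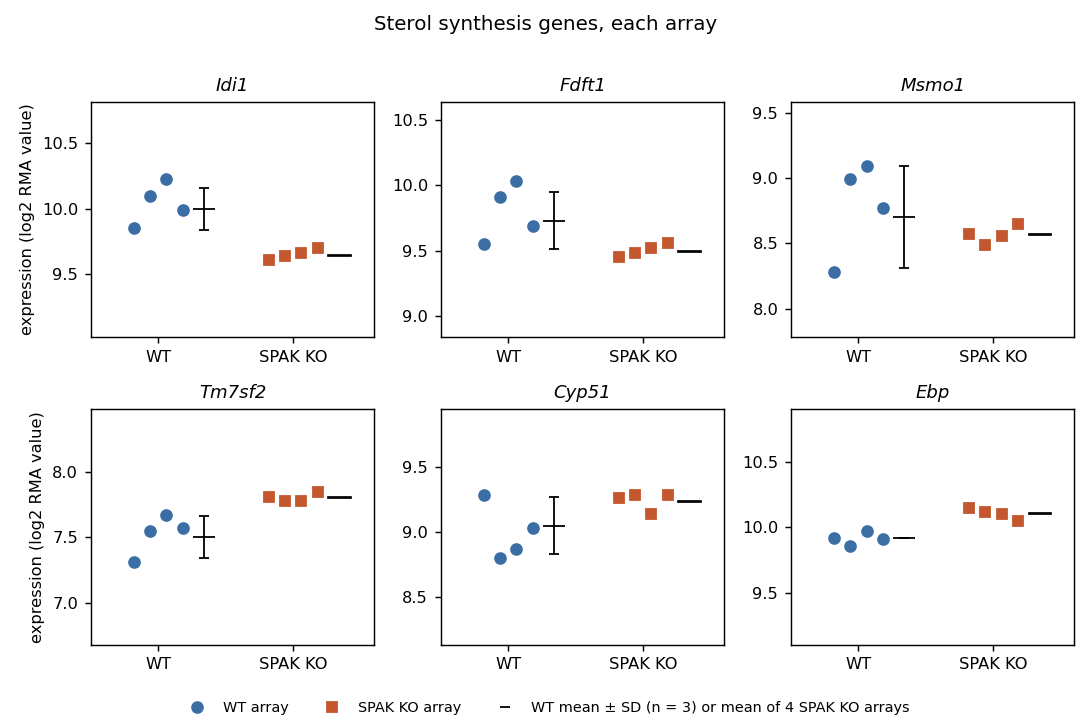
Log2 RMA values of 6 sterol synthesis genes on each array, with symbols and black marks as for the fatty acid genes. Idi1 is below every WT array in SPAK KO and Tm7sf2 and Ebp are above, while WT 1 lies inside or beside the SPAK KO range for Fdft1 and Cyp51.

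Promoter sequences are shown for 4 genes. Idi1 and Tm7sf2, members of 1 arm with opposite signs, can be compared with Hmgcs1 and with Thrsp of the other arm. Of 30 members with a window, only Hmgcs1 held an exact match to TCACNCCAC, the letters searched for the sterol regulatory element. The windows come from RefSeq on GRCm38.p6, from 250 bases before to 50 bases after the annotated start, 5′ to 3′ on the gene's strand. Capitals mark the NF-Y box, CCAAT, on either strand, where it reads ATTGG when reversed, and in Hmgcs1 also the match to TCACNCCAC. SREBPs are known to act with NF-Y, a factor that binds CCAAT. The 2 kinds of match do not overlap in these windows.
Idi1, chr13:8885356-8885655 (+): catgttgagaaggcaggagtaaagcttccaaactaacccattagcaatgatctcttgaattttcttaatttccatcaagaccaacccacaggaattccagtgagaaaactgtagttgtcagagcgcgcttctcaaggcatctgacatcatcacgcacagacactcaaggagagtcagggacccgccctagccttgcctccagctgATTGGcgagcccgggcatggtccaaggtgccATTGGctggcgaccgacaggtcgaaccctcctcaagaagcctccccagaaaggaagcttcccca
Tm7sf2, chr19:6067801-6068100 (-): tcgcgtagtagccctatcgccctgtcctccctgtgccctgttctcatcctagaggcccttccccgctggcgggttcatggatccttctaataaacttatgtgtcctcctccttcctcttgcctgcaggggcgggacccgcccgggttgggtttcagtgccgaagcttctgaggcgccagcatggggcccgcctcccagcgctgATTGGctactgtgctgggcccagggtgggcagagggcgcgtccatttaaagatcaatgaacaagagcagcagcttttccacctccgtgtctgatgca
Hmgcs1, chr13:119690101-119690400 (+): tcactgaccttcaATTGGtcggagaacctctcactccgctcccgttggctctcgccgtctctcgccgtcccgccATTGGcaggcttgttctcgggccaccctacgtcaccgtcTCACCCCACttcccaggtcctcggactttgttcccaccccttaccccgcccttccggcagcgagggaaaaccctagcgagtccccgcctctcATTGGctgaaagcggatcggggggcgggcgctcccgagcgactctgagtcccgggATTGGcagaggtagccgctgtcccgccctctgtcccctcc
Thrsp, chr7:97417501-97417800 (-): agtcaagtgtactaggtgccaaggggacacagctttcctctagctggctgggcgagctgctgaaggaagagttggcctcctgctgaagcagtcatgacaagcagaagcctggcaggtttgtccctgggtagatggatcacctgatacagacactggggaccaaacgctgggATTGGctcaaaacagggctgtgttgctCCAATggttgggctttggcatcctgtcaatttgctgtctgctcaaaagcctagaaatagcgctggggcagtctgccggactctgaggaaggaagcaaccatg

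Idi1 had matches to CCAAT whose first bases lay 45 and 14 bases before the start, and Tm7sf2 had 1 match at 47 bases. Idi1, called lower by its brighter probe set, and Tm7sf2, with the highest difference of the arm, both held the box close to the start. Entries were found for 30 of the 37 members, in 40 windows, and Scd1, Scd2, Fads1, Fdps, Fdft1, Sqle and Stard4 were without an entry. Counting a gene once if any of its windows held CCAAT, the share was 14 of 14 sterol genes, 8 of 11 fatty acid genes and 4 of 5 regulators, and 41.1% of 27025 genes overall. By window, it was 82.4% in the sterol arm, 61.5% in the fatty acid arm and 37.4% of all 32851 windows. TCACNCCAC was in 1 of 30 members, Hmgcs1, 137 bases before the start, and in 1.44% of all genes. Only exact matches were counted, so an element with other letters would be missed. Such matches describe letters in these windows and are not shown to be sites.

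The regulators showed no difference between genotypes that passed. Srebf1 read 7.76, 7.89, 8.04 and 7.92 in WT and 7.83, 7.88, 7.87 and 7.89 in SPAK KO, and every SPAK KO array lay inside the WT range. Its difference was -0.03 ± 0.06 (adjusted p = 0.797) and turned to 0.02 with arrays centred on their medians. Srebf2 read 8.92, 9.20, 9.21 and 9.08 in WT and 9.17, 9.11, 9.12 and 9.05 in SPAK KO, again inside the WT range. The Srebf2 difference was 0.01 ± 0.07 (adjusted p = 0.938) and turned to -0.03 with quantile normalization or cyclic loess.

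Insig1, itself a target of SREBPs, read 9.01, 9.43, 9.42 and 9.48 in WT and 9.34, 9.28, 9.28 and 9.15 in SPAK KO. With WT 1 low and the others high, it gave -0.07 ± 0.10, which ran from -0.18 without WT 1 to -0.02 without WT 4 and was -0.01 with arrays centred. Insig2 read 9.71, 9.57, 9.52 and 9.57 in WT, while SPAK KO arrays read 9.47, 9.52, 9.53 and 9.47, a difference of -0.10 ± 0.05 (-0.06 without WT 1, -0.04 with arrays centred). Scap read 9.84, 9.69, 9.74 and 9.76 in WT, while SPAK KO arrays read 9.85, 9.86, 9.85 and 9.75, a difference of 0.07 ± 0.05 (0.13 with arrays centred, 0.03 with quantile normalization). All 5 regulators overlapped between groups, and 0 had an unadjusted p under 0.05. These are levels of mRNA. Cleavage of the SREBP proteins was not measured.

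The spread between WT arrays was described by which array was lowest and which highest. WT 1 was the lowest WT array for 21 of the 37 members, against 27.3% of all genes, with 10 of 14 in the fatty acid arm and 8 of 18 in the sterol arm. It was also the highest for 7 of 37, against 32.4% of all genes. WT 3 was the highest for 19 of 37, against 20.6% of all genes, with 5 of 14 in the fatty acid arm and 12 of 18 in the sterol arm. No test was made of these counts. The median range over the WT arrays was 0.27 for the members and 0.22 for all genes, and over the SPAK KO arrays 0.11 and 0.17. The difference between genotypes was larger than the whole WT range for 4 members, Scd1, Idi1, Ebp and Me1, as it was for 2228 of all 19938 genes. It was smaller than 1 WT SD for 16 members, or 43.2%, against 56.1% of all genes.

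**Figure D4:**
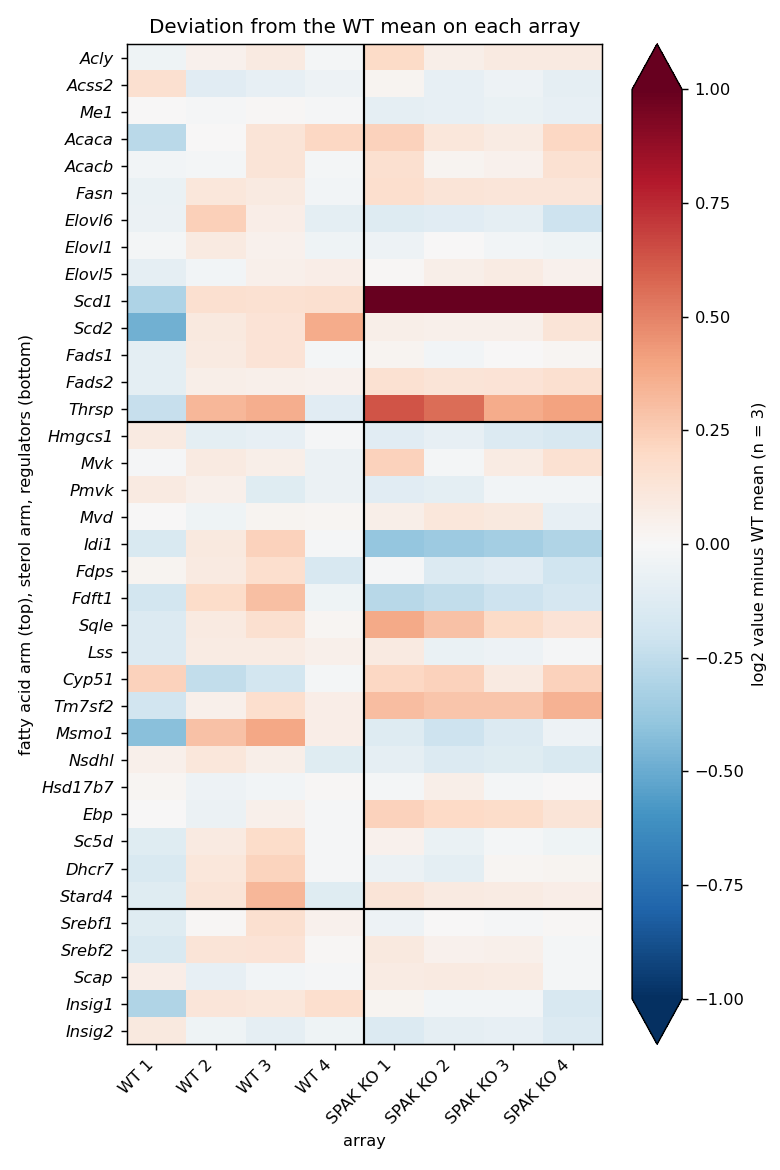
Log2 value minus the WT mean (n = 3) for each of the 37 genes on each array, with red above and blue below the WT mean and colours ending at 1 and -1. The Scd1 row is red on all 4 SPAK KO arrays and the Idi1 row blue, and most fatty acid genes are bluest on WT 1 among the WT arrays.

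Other genes of these pathways were taken from further lists. Of 28 other fatty acid synthesis genes 25 were measured and 0 passed, with 2 at an unadjusted p under 0.05 in limma. Oxsm, the mitochondrial ketoacyl synthase, gave -0.19 ± 0.07, and Acsl5, an acyl-CoA synthetase, 0.15 ± 0.06. The list's median was -0.02. Of 6 other sterol synthesis and uptake genes measured 0 passed and 2 had an unadjusted p under 0.05, Lbr, which like Tm7sf2 holds sterol reductase activity, at -0.26 ± 0.10 and Ggps1, which makes geranylgeranyl diphosphate, at 0.12 ± 0.05. Their median was also -0.02, and 7 further genes of that list are not analysed here. Of 7 measured SREBP processing genes 0 passed and 1 had an unadjusted p under 0.05, the sterol-binding protein gene Pgrmc1 at 0.15 ± 0.06, followed by Rnf5, a ubiquitin ligase, at -0.09 ± 0.05 (median 0.01).

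Markers of other tissues that make lipid were read beside these results. Cortex dissections can carry perirenal fat, where Scd1, Fasn and Thrsp are highly expressed. Of 11 fat markers measured, 1 was called higher and 0 lower, against 1.39% and 0.682% of all genes. The called marker was Retn, which encodes resistin, at 0.31 ± 0.07 (limma adjusted p = 0.0467). At an unadjusted p under 0.05, 6 were higher, against 1794 higher of all 19938 genes. With each array left out in turn, Retn passed in 0 of 8 fits, and it passed with WT 2 and WT 3 averaged (0.30, adjusted p = 0.0358), arrays centred (0.37, 0.0127), quantile normalization (0.0146) or cyclic loess (0.0145). The others at that level were Car3, Cidea (0.30 ± 0.10), Cidec (0.24 ± 0.07), Fabp4 (0.16 ± 0.06) and Adipoq (0.29 ± 0.11). Adipoq, which encodes adiponectin, read 4.56, 4.18, 4.17 and 4.36 in WT and 4.54, 4.63, 4.84 and 4.43 in SPAK KO. Adipoq, Cidea (4.38 to 4.70 in WT) and Lep (4.65 to 4.98) were dim. No background level comes with the values, so whether these markers were expressed is not known. The remaining markers did not reach an unadjusted p of 0.05 and ran from -0.25 for Plin4 to 0.13 for Ucp1, with Lep, the leptin gene, at -0.04 ± 0.10. The fat list's mean log2 level ran from 6.18 to 6.45 over WT arrays and from 6.44 to 6.57 over SPAK KO arrays. Its sum on the linear scale ran from 1842 to 4618 and from 4512 to 4733. That sum follows Car3, a carbonic anhydrase abundant in fat, which read 11.25, 9.81, 9.78 and 11.85 in WT and 11.76 to 11.85 in SPAK KO. The groups overlapped for Car3, and its difference was 1.13 ± 0.40 (adjusted p = 0.171).

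Of 6 liver markers 0 were called and 5 were higher at an unadjusted p under 0.05. Of all 19938 genes, 1794 were higher and 2012 lower at that level. The liver list's mean log2 level ran from 7.63 to 7.86 in WT and from 7.99 to 8.16 in SPAK KO. Its sums were 3509 to 5272 and 5315 to 5562. Among 9 adrenal markers 0 were called and 1, Cyp11b1, was lower at an unadjusted p under 0.05, with mean log2 levels of 4.75 to 4.86 and 4.68 to 4.84 and sums of 282.5 to 308.2 and 273.4 to 301.0. RMA values do not reach 0, so no marker could be shown to be absent. The part of fat or liver-type RNA in the difference of Scd1 was not tested. In whole cortex, a change in the number of cells of a type and a change of RNA per cell cannot be told apart.

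Proximal tubule markers gave 1 of 11 called, the water channel gene Aqp1 at 0.34 ± 0.06 (adjusted p = 0.0164; passed in 5 of 8 fits without 1 array), and a mean log2 level of 12.13 to 12.26 in WT and 12.25 to 12.27 in SPAK KO. Collecting duct markers, of principal and intercalated cells, gave 4 of 6 called higher and 1 lower, against 1.39% and 0.682% of all genes. Collecting duct levels were 9.60 to 9.78 in WT and 9.97 to 10.05 in SPAK KO. In the thick ascending limb and distal tubule list 1 of 6 was higher and 1 lower. Of 4 podocyte markers 0 were called and 2, Wt1 and Nphs1, were higher at an unadjusted p under 0.05. The Nphs1 probe sets disagreed, with 0.15 for the one used and -0.48 for a dimmer one, which passed as lower (adjusted p = 0.0278). Of 6 macrophage markers 0 were called and 1 was lower at that level. The part of these cell types in the differences of the lipid genes was not tested.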

How the data were processed

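Total RNA of renal cortex (6 µg per sample) was measured on Affymetrix arrays, 1 per sample. The deposited values are log2 values per probe set, which the submitters' processing notes tie to RMA and Affymetrix Expression Console. Software version, genome build and filters are not given in the sources used here. Of 35556 probe sets, 21789 had exactly 1 symbol in the platform annotation, 1621 several and 12146 none. The brightest single-symbol probe set stood for each of 19938 genes.

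All genes were fitted on genotype over the 8 arrays (lmFit and eBayes of limma 3.58.1, R 4.3.3), with Benjamini-Hochberg adjustment over all genes, and the scripts were tested on simulated data. The number of arrays limits the precision. Pairs of arrays were compared before averaging. The labels do not say whether arrays share an RNA extract. Deviations of same-numbered WT and SPAK KO arrays from their group means had correlations from -0.13 to 0.13. The SPAK KO arrays differ so little that these values cannot show whether replicate numbers pair the arrays. The main fit used no pairing.

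The members and lists were chosen with earlier results of these data known. Genes named by rule were Scd1, Srebf1, Srebf2, Insig1, called members, the 3 uncalled members with the largest differences in each arm and among the regulators, and from each further list its called genes or else the 2 with the smallest p. Other members, Scd3, Scd4, Mlxipl and the markers named were added after their values were seen. Ratios were tested with scipy 1.17.1. Alternatives changed the arrays, normalization, filter, probe set or variance model. Figures used matplotlib 3.10.9.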

Additional observations from a re-analysis of the deposited data

Results flagged for a closer look

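Each member's 4 arrays per genotype were searched for an array far from the other 3, by Dixon's criterion on the gap as a share of the range. Of 74 groups 9 had such an array, where chance gives about 1 in 20, and 4 of the 9 were WT 1.

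On WT 1, Scd1 read 9.23 against 9.69 to 9.70 on the other WT arrays. Fads2 read 11.41 there against 11.55 to 11.57. Lss read 7.39 against 7.58 to 7.61, and Insig1 read 9.01 against 9.42 to 9.48. All 4 values were below the rest. On WT 3, Acacb read 7.43 against 7.27 to 7.28.

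The SPAK KO arrays set apart differed by little. Scd2 read 10.63 on SPAK KO 4 against 10.55 to 10.56, and Scap read 9.75 on that array against 9.85 to 9.86. Fasn read 8.96 on SPAK KO 1 against 8.91 to 8.92. Cyp51 read 9.14 on SPAK KO 3 against 9.26 to 9.28.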

How the results depend on the processing

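Scd1 was higher in each of the 18 other settings and passed in 17, the exception being agreeing arrays counted once (1.32, adjusted p = 0.946). The median differences of the fatty acid and sterol arms moved by less than their SD between WT samples in each of the 18 settings. That SD was about as large as the fatty acid median (0.07) and larger in size than the sterol median (-0.04). It therefore cannot show that a median kept its size or sign. The fatty acid median ran from 0.03 with cyclic loess or quantile normalization to 0.12 with arrays centred. The sterol median ran from -0.06 with quantile normalization to 0.02 with arrays centred, where its sign turned. The number of members called higher was 0 with agreeing arrays counted once, and 3 (Scd1, Tm7sf2 and Ebp) with arrays centred on their medians, means under 6 left out, or trend and robust eBayes. It ran from 1 to 2 over the fits that left out 1 array, with Cyp51 added without WT 1. The number called lower was 0 with WT 2 and WT 3 averaged, agreeing arrays counted once, arrays centred, the mean of all probe sets, the dimmest probe set (chosen after seeing the data) or the replicate block. It ran from 0 to 2 over the fits that left out 1 array, with Msmo1 added without WT 1. With the replicate block Idi1 had an adjusted p of 0.0627 and Scd1 one of 0.00626, and no other call of a member changed.

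Srebf1 turned to 0.02 with arrays centred and to 0.01 without WT 3, and ran from -0.08 to 0.01 over the fits without 1 array. Srebf2 turned to -0.03 with quantile normalization or cyclic loess, to -0.0074 without SPAK KO 1 and to -0.05 without WT 1, and ran from -0.05 to 0.05 over those fits. Over all genes the 414 calls became 0 with agreeing arrays counted once, 174 with the replicate block, 253 with WT 2 and WT 3 averaged, 664 with dim genes left out, 762 with arrays centred and 767 with trend and robust eBayes, and 156 to 625 without 1 array. These causes were not tested. No detection call comes with the values, so dim genes such as Thrsp have no stated floor.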

Other observations

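Genes that act beside the SREBPs were also read. Of 13 lipogenic transcription factors and partners measured, 1 was called higher and 0 lower, against 1.39% and 0.682% of all genes. The called gene was Ppara, the fatty acid receptor that drives fat oxidation. Ppara read 9.64, 9.81, 9.77 and 9.74 in WT, while in SPAK KO it read 10.09, 10.05, 10.04 and 10.08. The groups did not overlap, and the difference of 0.33 ± 0.05 (SE; limma adjusted p = 0.0113) passed in all 8 fits that left out 1 array. Mlxipl, the carbohydrate response factor ChREBP that also induces lipogenic genes, gave -0.18 ± 0.07 (adjusted p = 0.198). The list's median was 0.03.

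Of 12 liver X receptor targets and cholesterol export genes measured, 1 was called higher and 0 lower, against 1.39% and 0.682% of all genes. Apoe, the apolipoprotein that carries exported cholesterol, read 11.02, 10.98, 11.02 and 10.86 in WT and 11.43, 11.31, 11.26 and 11.30 in SPAK KO, a difference of 0.35 ± 0.06 (adjusted p = 0.0149) that passed in 7 of the 8 fits. In this list 10 of 12 genes were above 0, against 45.8% of all genes, and the list was not tested. The median was 0.09, against -0.01 over all genes. With arrays centred on their medians it was 0.15, where the median of all genes was 0.05. With agreeing arrays counted once the differences were 0.34 for Ppara and 0.36 for Apoe. That limma fit, with 1 SPAK KO sample, called 0 genes of any kind, with 618 at an unadjusted p under 0.05.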
